A study of Rattus norvegicus with 21 samples.

Results

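The genes described here encode the machinery that docks, fuses and recovers synaptic vesicles in nerve terminals. They were chosen by name: 44 symbols covering synapsins and vesicle membrane proteins, synaptotagmins, SNARE proteins with their regulators, active zone and priming proteins, Rab3 GTPases with an effector, and endocytic proteins. A gene was read from an array probe set annotated to that symbol alone, taking the probe set with the highest mean where there was more than 1. This gave 43 of the 44 genes, and all 43 passed the filter on low signal that left 10804 of 14506 named genes. Napb, an NSF attachment protein, was not analysed here. Within the rule, measured values serve only to pick a gene's probe set. The symbols were chosen with earlier results of these data known.

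RNA of the dentate gyrus had been hybridised to Affymetrix arrays for 18 male wild type Wistar rats aged 2 months, with 3 animals in each of 6 groups. Control animals were untreated. The stress group underwent unpredictable chronic mild stress (uCMS) for 6 weeks, and the remaining 4 groups underwent the same stress and received 1 drug by daily intraperitoneal injection during the final 2 weeks. Those drugs were fluoxetine (a serotonin reuptake inhibitor, in water), imipramine (a tricyclic monoamine reuptake inhibitor, in saline), tianeptine (an atypical tricyclic, in saline) and agomelatine (a melatonin receptor agonist that blocks the 5-HT2C receptor, in hydroxyethylcellulose). The dose was 10 mg/kg for the first 3 and 40 mg/kg for agomelatine. All drug groups thus carry the stress as well, no group received a drug without stress, and vehicle injections of the control and stress groups are not mentioned in the labels. Drug, dose, vehicle and injection therefore cannot be told apart in any comparison of a drug group with stress or control. Values are log2 expression values, so a difference of 1 is a doubling, and every mean is over 3 animals unless another n is given. Arrays have no read depth, and the number of animals limits the precision.

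At a nerve terminal, synapsins tether vesicles in a reserve pool, and RIM, Munc13 and the scaffolds bassoon and piccolo dock and prime them at the active zone. Calcium binding to synaptotagmin lets the SNARE proteins synaptobrevin, syntaxin and SNAP-25 fuse the vesicle with the membrane, complexins clamp and promote this step, and NSF with its attachment proteins takes the spent complexes apart. Dynamin, amphiphysin and synaptojanin then recover membrane by clathrin-mediated endocytosis. Granule cells of the dentate gyrus make these proteins for the mossy fibre terminals they send to CA3, a synapse known for strong facilitation, while local interneurons and mossy cells make them for terminals within the dentate gyrus.

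The groups were first checked with lists of cell type genes. A list's score in an animal is the average deviation of its genes from their means over all 18 animals, on the log2 scale. The labelled tissue carried its granule neuron genes, at mean levels of 11.31 to 11.58 in the 15 animals of the other groups and 10.97 to 11.01 in the agomelatine group. The granule neuron score was -0.40 to -0.36 in the 3 agomelatine animals and -0.06 to 0.21 in the others. Oligodendrocyte scores were 0.40 to 0.80 with agomelatine and at most 0.04 elsewhere. The score of CA-field pyramidal neuron genes was 0.11 to 0.43 with agomelatine, 0.36 in stress 3, and -0.02 or less in the remaining animals. The genes of this list did not all move together. In agomelatine 3, Ccn3 (9.25) and Cpne4 (12.29) were above their means over all animals (8.65 and 11.76). Fibcd1 (8.29) and Mpped1 (8.71) were below theirs (8.55 and 9.06). In stress 3, Ccn3 read 10.72 and Mpped1 10.16, while Lefty1 (7.06) was below its mean (7.41). Choroid plexus genes (3 of 11 listed passed the filter) scored 3.71 in agomelatine 1, 1.37 in stress 1 and 0 or less elsewhere. In bulk tissue, fewer cells of a type and less RNA per cell cannot be told apart.

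The plot of every gene in every animal shows most values close to the gene's own mean. Snap25, which encodes the plasma membrane SNARE SNAP-25, ran from 13.38 to 13.51 over the 18 animals. Syn2 ran from 12.20 to 12.40 and Syp, the vesicle marker synaptophysin, from 12.65 to 12.82. The widest range belonged to Sv2b, a vesicle glycoprotein of the SV2 family, from 10.95 to 12.55. Unc13c (Munc13-3) ran from 8.67 to 9.65, with its lowest value in tianeptine 3, and Rab3b from 9.45 to 10.35. The median SD within a group over the 43 genes was 0.0875 with agomelatine, 0.0916 with stress and 0.0497 to 0.0788 in the other groups. Over all 10804 genes it was 0.114 with agomelatine, 0.082 with stress and 0.0631 to 0.0852 in the other groups. The presynaptic genes thus varied more than all genes in the stress group and less in the remaining 5 groups.

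**Figure D1:**
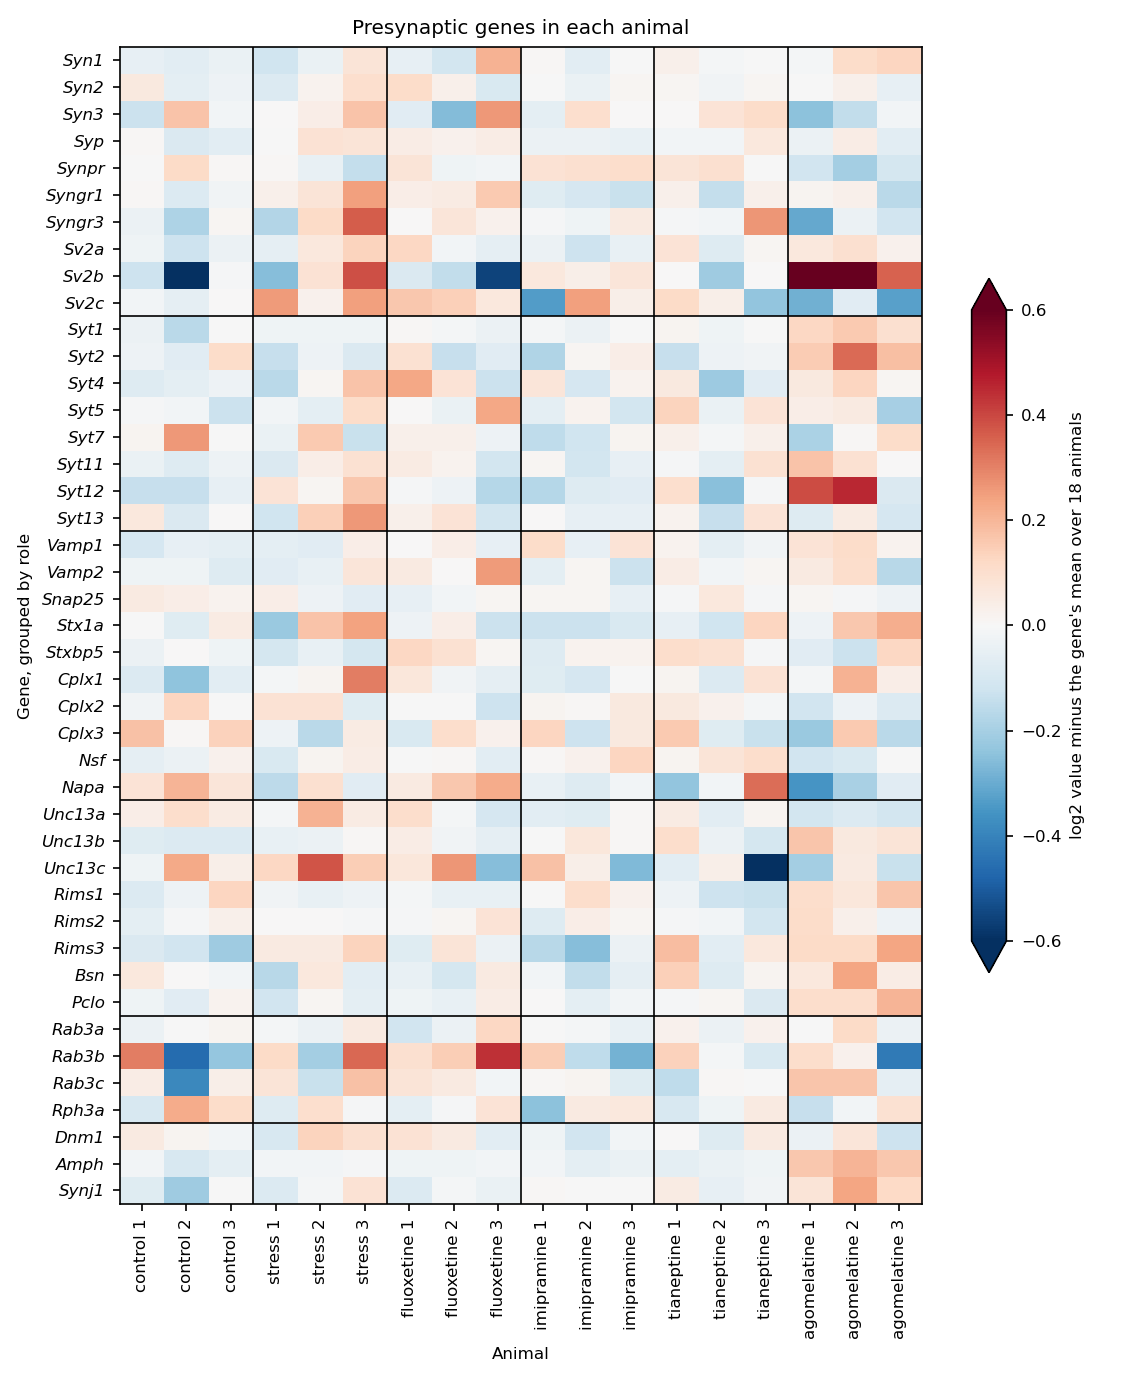
Log2 value of each of the 43 presynaptic genes (rows, grouped by role with black lines) in each of the 18 animals (columns), as the difference from the gene's mean over all animals; colours saturate at 0.6 in either direction. The right-hand columns show Sv2b, Amph, Syt1, Syt2 and Pclo high in the 3 agomelatine animals, and the Sv2b row shows control 2 and fluoxetine 3 low.

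Single animals shifted many of these genes together. Within the stress group, stress 3 was the highest of the 3 animals for 26 of the 43 genes and stress 1 the lowest for 29. Over all genes stress 3 was the highest for 45.5% and stress 1 the lowest for 38.3%. Agomelatine 2 was the highest of its group for 25 of the 43, against 32.1% of all genes. Control 2 was the lowest of its group for 21 of the 43, against 28.7% of all genes. Stress 3 and agomelatine 2 also had the highest CA-field and interneuron scores of their groups, and control 2 had the lowest of both (-0.18 and -0.28). The part of these cell type scores in the differences below was not tested.

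Chronic stress alone was the first comparison. None of the 43 genes differed between stress and control at an adjusted p under 0.05, nor did any of the 10804 genes (0%). At an unadjusted p under 0.05 there were 5 of 43 (11.6%) against 5.4% of all genes, and all 5 had higher means with stress. Cplx1, which encodes complexin 1, had the smallest p among higher genes. Its values were 10.73, 10.57 and 10.75 in control animals 1 to 3 and 10.80, 10.83 and 11.12 in stress animals 1 to 3. The groups did not overlap, and stress 3 stood above the rest. The difference was 0.23 ± 0.08 (SE, 95% interval 0.07 to 0.40, adjusted p = 0.828). Its repeat control arrays read 0.25 lower on average than the first arrays of the same animals, a shift as large as the difference itself. With the repeat arrays alone as controls the Cplx1 difference was 0.36 (adjusted p = 0.0465), the only member called under any alternative of this comparison.

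The other 4 were Rims3 (0.22), a short RIM protein, Sv2b (0.43), the tetraspan vesicle protein synaptogyrin 1 (Syngr1, 0.15) and Syp (0.10), all at an adjusted p of 0.828. Synpr, the synaptophysin relative synaptoporin that is abundant in mossy fibre terminals, had the smallest p among genes with a lower mean. It read 11.14, 11.26 and 11.15 in control and 11.15, 11.10 and 11.00 in stress, a difference of -0.10 ± 0.05 (SE, adjusted p = 0.828). These groups overlapped. Of the 43 genes, 32 had a higher mean with stress and the median difference was 0.041, beside 60.4% of all genes and an all-gene median of 0.0228. With quantile normalisation once more, 27 were higher and the median was 0.0163. Bringing arrays to equal medians moves every gene alike, here by -0.0536, and left 20 genes higher and a median of -0.0126. The direction of the set as a whole thus depended on the scaling.

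None of the 43 genes was called relative to stress with a drug at 10 mg/kg, and no gene of the 10804 was called in these 3 comparisons (0% each). All 3, and the agomelatine comparison below, share the same 3 stressed animals, so their values are given side by side and not set against each other. With fluoxetine, 1 of 43 had an unadjusted p under 0.05, against 5.01% of all genes. That gene was Stxbp5 (tomosyn, a soluble inhibitor of SNARE assembly). It read 10.90, 10.87 and 10.79 with fluoxetine and 10.67, 10.73 and 10.67 with stress, without overlap, a difference of 0.16 ± 0.06 (SE, 95% interval 0.03 to 0.29, adjusted p = 0.959). With tianeptine Stxbp5 read 10.88, 10.87 and 10.77, also above the stressed animals, a difference of 0.14 ± 0.06 (SE, adjusted p = 0.943). With imipramine the difference was 0.07 ± 0.06 (SE, adjusted p = 0.704) and the groups overlapped. In the fluoxetine comparison, the gene with the smallest p among lower means was Sv2b, at 11.79, 11.73 and 11.32 against 11.62, 11.96 and 12.26 with stress. The difference was -0.33 ± 0.19 (SE, 95% interval -0.73 to 0.06, adjusted p = 0.970).

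With imipramine, 4 of 43 genes had an unadjusted p under 0.05, against 10% of all genes. Syngr1 had the smallest p, at 11.19, 11.16 and 11.13 against 11.29, 11.34 and 11.51 with stress. The animals did not overlap, and the difference was -0.22 ± 0.07 (SE, 95% interval -0.36 to -0.08, adjusted p = 0.459). Synpr was the first among genes with a higher mean. It read 11.23, 11.24 and 11.25 with imipramine, all above the highest stressed animal at 11.15, a difference of 0.16 ± 0.05 (SE, 95% interval 0.04 to 0.27, adjusted p = 0.459). The other 2 were Rims3 at -0.23 and Syp at -0.09, with adjusted p-values of 0.459 and 0.477.

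With tianeptine, 4 of 43 genes had an unadjusted p under 0.05, against 5.06% of all genes. Unc13c, a Munc13 priming factor, had the smallest p. It read 9.21, 9.31 and 8.67 against 9.40, 9.65 and 9.42 with stress, a difference of -0.42 ± 0.15 (SE, 95% interval -0.74 to -0.10, adjusted p = 0.943). Tianeptine 3 was far below the other animals. Beside Stxbp5, the remaining genes were Synpr (0.12) and Syngr1 (-0.14), both at an adjusted p of 0.943. Over the 43 genes, means were higher than with stress for 20 with fluoxetine, 13 with imipramine and 17 with tianeptine, beside 46%, 40.4% and 42.4% of all genes. With quantile normalisation once more these counts were 17, 19 and 17, and the median difference stayed below 0 in all 3 (-0.0131, -0.0164 and -0.0137). Equal array medians, which move every gene alike by 0.0397, 0.0448 and 0.0468, gave 30, 23 and 29 and medians above 0.

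Compared with the untreated controls, these 3 groups showed as little, and the 3 control animals are shared as well. None of the 43 genes was called with fluoxetine, imipramine or tianeptine, where 0%, 0.0185% and 0% of all genes were. At an unadjusted p under 0.05 there were 0 of 43 with fluoxetine (4.89% of all genes), 3 with imipramine (8.27%) and 1 with tianeptine (4.04%). Vamp2, the vesicle SNARE synaptobrevin 2, had the smallest p among higher genes with fluoxetine, at 12.00, 11.95 and 12.20 against 11.92, 11.92 and 11.87 in control (0.14 ± 0.07, SE, adjusted p = 0.984). Snap25 had the smallest p among lower genes, at 13.40, 13.43 and 13.46 against 13.50, 13.49 and 13.47 (-0.06 ± 0.04, SE, adjusted p = 0.984). With control arrays averaged, the animals did not overlap in either gene. Both genes were picked for their p, however, and neither had an unadjusted p under 0.05. Single arrays did not keep this order. The first control arrays read 13.45, 13.43 and 13.45 for Snap25, within the fluoxetine range, and the repeat arrays read 0.09 higher on average. Over the alternatives the Snap25 difference ran from -0.1 to -0.01. For Vamp2 the first array of control 1 read 11.96, above fluoxetine 2. The share of all genes without overlap was not counted here.

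With imipramine, Vamp1 (synaptobrevin 1) read 12.13, 11.97 and 12.10 against 11.92, 11.97 and 11.96 in control, a difference of 0.12 ± 0.05 (SE, adjusted p = 0.543). Syt7, a slow calcium sensor with a role in facilitation, read 11.09, 11.12 and 11.26 against 11.26, 11.50 and 11.24, a difference of -0.18 ± 0.08 (SE, adjusted p = 0.587). With tianeptine, Rims3 read 7.83, 7.58 and 7.71 against 7.56, 7.53 and 7.43, a difference of 0.20 ± 0.08 (SE, adjusted p = 1). Rims1, which encodes the active zone organiser RIM1, read 11.25, 11.16 and 11.15 against 11.20, 11.25 and 11.41 (-0.10 ± 0.05, SE, adjusted p = 1). With control arrays averaged, the Rims3 animals did not overlap with the controls. The Vamp1 animals only just cleared them, with imipramine 2 and control 2 both at 11.97 after rounding. Single arrays did not keep either order. The first control arrays read 12.03, 12.03 and 11.98 for Vamp1, above imipramine 2. For Rims3 the first array of control 1 read 7.64, above tianeptine 2. Repeat arrays read 0.12 lower on average for Vamp1 and 0.17 higher for Rims1, shifts no smaller than those differences. Syt7 and Rims1 overlapped.

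Imipramine and tianeptine are both tricyclic compounds given at the same dose for the same time and in the same vehicle, and were compared directly as 1 pair. This comparison was added after the files had been seen. None of the 43 genes was called, and 0% of all genes were. At an unadjusted p under 0.05 there were 2 of 43, against 6.15% of all genes. Rims1 was 0.14 ± 0.05 higher with imipramine (SE, 95% interval 0.03 to 0.26) and Rims3 was lower, at -0.22 ± 0.08 (SE, 95% interval -0.38 to -0.05), each with an adjusted p of 0.789. The Rims1 animals did not overlap, with 11.28, 11.39 and 11.31 under imipramine against 11.25, 11.16 and 11.15 under tianeptine. For Snap25 the interval was -0.10 to 0.06 and for Syp -0.14 to 0.04. For Unc13c it was -0.13 to 0.51, which leaves room for sizeable differences.

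**Figure D2:**
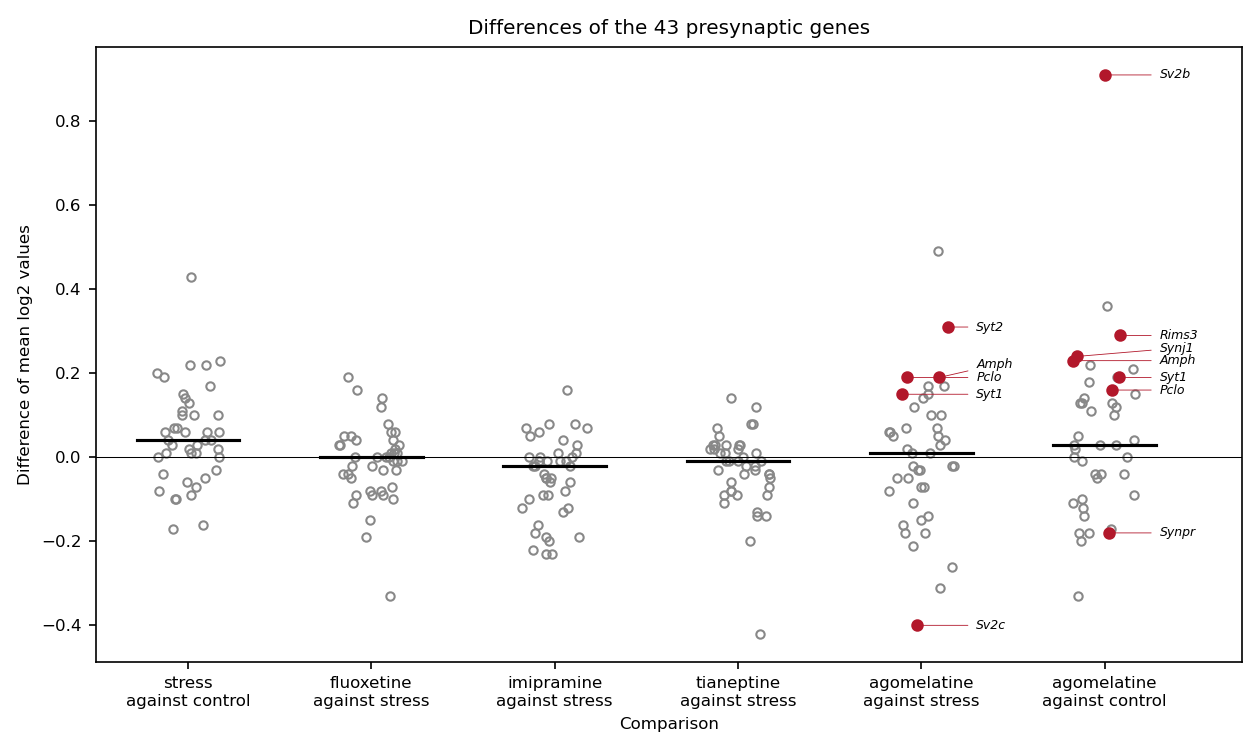
Difference of mean log2 values of the 43 presynaptic genes (points, spread sideways for legibility) in each of 6 comparisons, with the median as a black bar; filled and named points passed an adjusted p under 0.05. The first 4 comparisons hold no filled point, and the agomelatine comparisons hold 5 and 7.

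Agomelatine was the only group with a call among the 43 genes, and nearly all calls over all genes came from its comparisons as well. Relative to stress, 5 of the 43 genes were called (11.6%), against 10.8% of all genes, a share close to the background. Amph, Pclo, Syt1 and Syt2 rose and Sv2c fell. The 4 higher genes are 9.3% of the 43, against 4.18% of all genes called higher, and the single lower gene is 2.33%, against 6.58%. Relative to control, 7 were called (16.3%), against 9.59% of all genes. Of these, 6 rose (Sv2b, Rims3, Synj1, Amph, Syt1 and Pclo; 14%, against 5.28%) and Synpr fell (2.33%, against 4.31%). Both comparisons share the agomelatine animals. The F test among the 6 groups called 3 of the 43, Amph, Syt1 and Sv2b (6.98%), against 6.76% of all genes.

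In 4 genes all 3 agomelatine animals lay above all 15 other animals (9.3% of the 43, against 3.8% of all genes), and in none did they all lie below (0%, against 4.84%). Those 4 were Amph, Syt1, Pclo and Syt2, with the arrays of each control animal averaged. The plot of values by animal shows them in its top row.

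**Figure D3:**
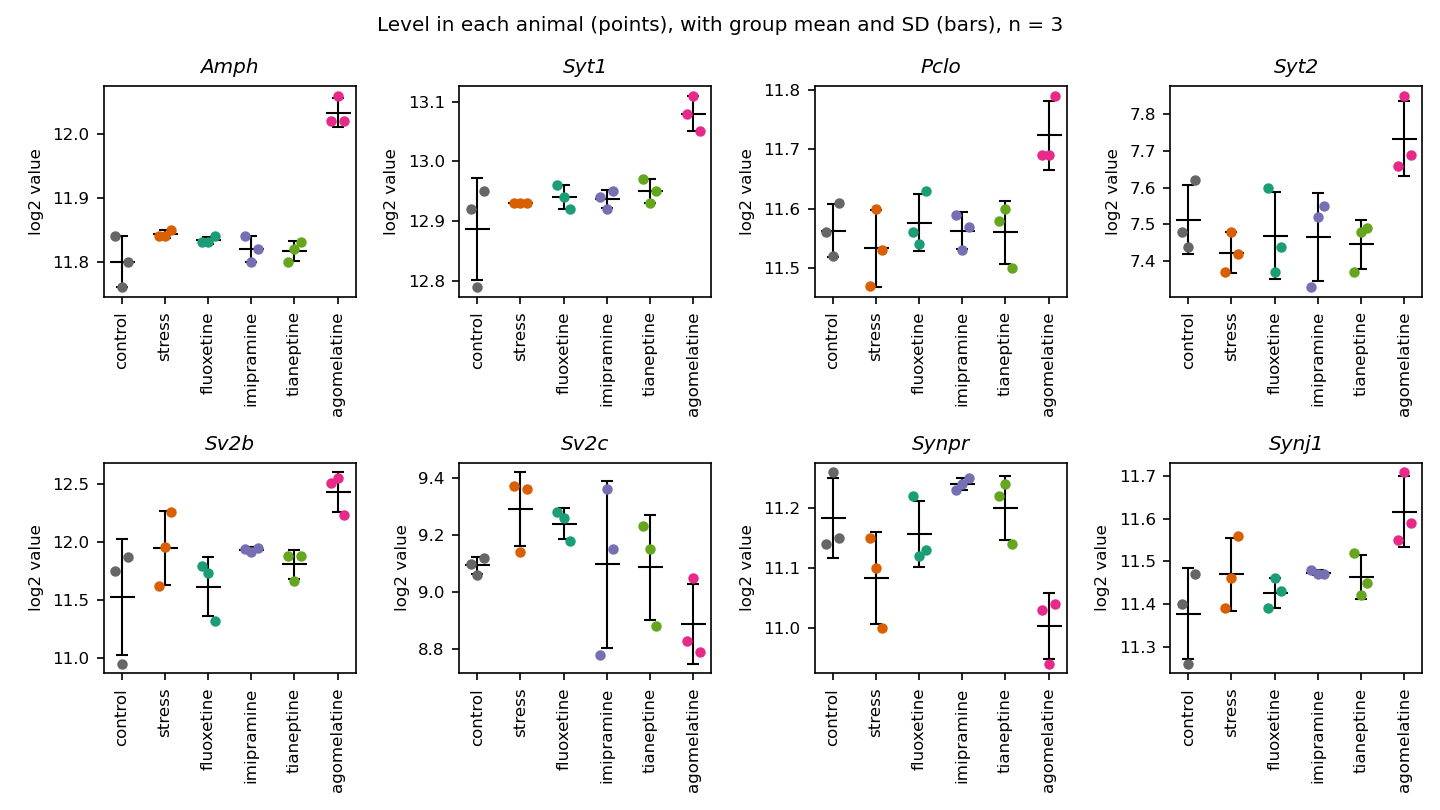
Log2 value of 8 presynaptic genes in each animal (coloured points, 6 groups of 3), with the group mean and SD as black bars; each panel has its own axis, which does not start at 0. Amph, Syt1, Pclo and Syt2 (top row) show agomelatine animals above all 15 others, and Sv2b, Sv2c, Synpr and Synj1 (bottom row) overlap with at least 1 animal of another group.

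The endocytic genes held the clearest case. Amph encodes amphiphysin, which binds curved membrane and recruits dynamin to endocytic pits. It read 12.02, 12.06 and 12.02 in the agomelatine animals. The stressed animals read 11.84, 11.84 and 11.85, and the controls 11.84, 11.76 and 11.80. Over all 15 other animals the range was 11.76 to 11.85, so the groups were well separated. The difference from stress was 0.19 ± 0.04 (SE, 95% interval 0.11 to 0.27, adjusted p = 0.00529). The difference from control was 0.23 ± 0.04 (SE, 95% interval 0.15 to 0.31, adjusted p = 0.00158). Both differences were called with each of the 18 animals left out in turn. The repeat control arrays read 0.11 above the first arrays on average, and with either set alone the difference from control stayed between 0.18 and 0.29. Restricted to the 2 groups compared, the difference from stress had an adjusted p of 0.0876.

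Synj1 encodes synaptojanin 1, the lipid phosphatase that uncoats endocytosed vesicles. It read 11.55, 11.71 and 11.59 with agomelatine, 11.40, 11.26 and 11.47 in control and 11.39, 11.46 and 11.56 with stress. It was above control by 0.24 ± 0.06 (SE, adjusted p = 0.0173) and above stress by 0.14 ± 0.06 (SE, adjusted p = 0.122). The overlap with stress comes from stress 3. The call against control was lost without control 2 (adjusted p = 0.114) or agomelatine 2 (0.0551). Dnm1 (dynamin 1), the GTPase that cuts vesicles from the membrane, read 12.64, 12.75 and 12.55 with agomelatine and 12.58, 12.81 and 12.77 with stress, and was not called in any comparison.

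Among the synaptotagmins, Syt1 and Syt2, the fast calcium sensors for release, were the called genes. Syt1 read 13.08, 13.11 and 13.05 with agomelatine, 12.93 in each of the 3 stressed animals, and 12.92, 12.79 and 12.95 in control. All 15 other animals lay at or below 12.97. Syt1 rose by 0.15 ± 0.04 over stress (SE, 95% interval 0.07 to 0.24, adjusted p = 0.0208) and by 0.19 ± 0.04 over control (SE, 95% interval 0.11 to 0.28, adjusted p = 0.00663). The first call was lost without stress 2, stress 3 or agomelatine 2 (adjusted p 0.0557 to 0.0626 for these, values 0.14 to 0.16), and the second without control 2 (0.0552).

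Syt2, which in the forebrain is used mainly by fast inhibitory terminals, was close to the low-signal level of 7.165. It read 7.66, 7.85 and 7.69 with agomelatine against 7.37, 7.48 and 7.42 with stress and 7.48, 7.44 and 7.62 in control. With control arrays averaged, the agomelatine animals were above every other animal, by 0.04 at the nearest. Single arrays did not keep this order. Control 3 read 7.42 on its first array and 7.82 on its repeat, above agomelatine 1 and 3. The repeat control arrays read 0.19 above the first arrays on average. The difference from stress was 0.31 ± 0.09 (SE, 95% interval 0.13 to 0.48, adjusted p = 0.0273) and that from control 0.22 ± 0.09 (SE, adjusted p = 0.108). The call was lost without stress 1, stress 2, stress 3 or agomelatine 2. Of the other 6 synaptotagmins none was called against stress or control. Syt12, a vesicle synaptotagmin that lacks calcium binding, read 8.99 and 9.05 in agomelatine 1 and 2 but 8.51 in agomelatine 3, within the range of the other groups (8.35 to 8.76).

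Of the active zone and priming genes, Pclo rose in both comparisons. It encodes piccolo, a giant scaffold of the active zone. It read 11.69, 11.69 and 11.79 with agomelatine, 11.47, 11.60 and 11.53 with stress and 11.56, 11.52 and 11.61 in control. No other animal exceeded 11.63. The difference from stress was 0.19 ± 0.05 (SE, 95% interval 0.09 to 0.29, adjusted p = 0.0196), lost without stress 1, stress 3 or agomelatine 3. The difference from control, 0.16 ± 0.05 (SE, adjusted p = 0.0468), was close to the threshold and was called in 5 of the 18 fits that left out an animal. With the repeat arrays alone as controls it was 0.09.

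Rims3 read 7.76, 7.76 and 7.88 with agomelatine and 7.56, 7.53 and 7.43 in control, without overlap, and rose by 0.29 ± 0.08 (SE, adjusted p = 0.028). The stressed animals read 7.70, 7.70 and 7.78, so the difference from stress was 0.07 ± 0.08 (SE, adjusted p = 0.593). The call against control was lost without any 1 of the 3 controls, agomelatine 1 or agomelatine 3. Rims1 and Bsn (bassoon, the partner scaffold of piccolo) had higher means than with stress, by 0.15 ± 0.05 and 0.17 (adjusted p = 0.0878 for Rims1). Unc13a, the main Munc13 of glutamate synapses, had a lower mean, by -0.18, and none of these was called. The agomelatine animals read 11.04 to 11.07 for Unc13a, below all stressed animals (11.14 to 11.36) and all controls (11.19 to 11.26). For Rims1 they read 11.35 to 11.45, above all stressed animals (11.24 to 11.26) but overlapping with the controls (11.20 to 11.41). Bsn overlapped with both groups. Of the 8 genes of this role, 6 had a higher mean than stress.

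The 3 SV2 genes gave different values. Sv2a, the widespread form, read 11.67, 11.70 and 11.63 with agomelatine and 11.55, 11.67 and 11.74 with stress, a difference of 0.02. Sv2b read 12.51, 12.55 and 12.23 with agomelatine, 11.75, 10.95 and 11.87 in control and 11.62, 11.96 and 12.26 with stress. Stress 3 thus lay within the agomelatine range, and control 2 was far below the rest. Sv2b rose over control by 0.91 ± 0.19 (SE, 95% interval 0.52 to 1.30, adjusted p = 0.00568), the largest difference of the 43. Without control 2 it was 0.62 (adjusted p = 0.0348), and the call held with each of the 18 animals left out. The difference from stress was 0.49 ± 0.19 (SE, 95% interval 0.09 to 0.88, adjusted p = 0.0984).

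Sv2c is the form with the most restricted distribution in rat brain. It read 8.83, 9.05 and 8.79 with agomelatine and 9.37, 9.14 and 9.36 with stress, without overlap. It fell by 0.40 on the log2 scale (SE 0.12, 95% interval -0.65 to -0.16, adjusted p = 0.0349). Against control, at 9.10, 9.06 and 9.12, the difference was -0.20 ± 0.12 (SE, adjusted p = 0.295). The call against stress was lost without stress 1, stress 3, agomelatine 1 or agomelatine 3, and with arrays at equal medians (-0.35, adjusted p = 0.0567).

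Synpr read 11.03, 10.94 and 11.04 with agomelatine against 11.14, 11.26 and 11.15 in control, without overlap, and fell by 0.18 on the log2 scale (SE 0.05, 95% interval -0.29 to -0.06, adjusted p = 0.0446). That call was kept in 6 of the 18 fits with an animal left out. Stress 3, at 11.00, overlapped with the agomelatine animals, and the difference from stress was -0.08 ± 0.05 (SE, adjusted p = 0.366). The synapsins Syn1, Syn2 and Syn3 differed from stress by 0.10, -0.02 and -0.21 and were not called. Synaptophysin (Syp) differed by -0.07, Syngr1 by -0.15 and Syngr3 by -0.26, also without a call. Syngr3 was the gene of the 43 with the largest shift between repeat and first control arrays, -0.29 on average.

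None of the 10 SNARE genes and regulators and none of the 4 Rab3 and effector genes was called in either comparison, beside 10.8% and 9.59% of all genes. Snap25 read 13.46, 13.44 and 13.42 with agomelatine and 13.49, 13.42 and 13.38 with stress, a difference of 0.01 with an interval of -0.07 to 0.09. Vamp2, Stx1a (syntaxin 1A) and Cplx1 differed from stress by 0.01, 0.05 and -0.03. Napa (alpha-SNAP) read 12.08, 12.24 and 12.37 with agomelatine and 12.52, 12.64 and 12.51 in control, a difference of -0.33 ± 0.10 (SE, adjusted p = 0.0567). Stx1a was the only member with 2 probe sets, which had the same mean level of 9.75. Rab3b had the wide interval of -0.56 to 0.19 against stress.

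Left-out animals moved the number of calls. Against stress it was 1 of 43 without stress 3, and 3 without stress 2 or agomelatine 2. Against control it was 2 without control 2, and 4 without control 1, control 3 or agomelatine 1. With stress 1 and agomelatine 1 both left out, the animals with high choroid plexus genes, it was 1 against stress and 4 against control, an alternative chosen after seeing the data. In the F test it was 1 without stress 2, agomelatine 1, agomelatine 2, tianeptine 1 or any 1 of the imipramine animals.

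The agomelatine group was also set against the mean of the other 3 drug groups, which share stress and injection with it but had a lower dose and other vehicles. In this comparison 11 of the 43 genes were called (25.6%), against 19.1% of all genes. The 9 higher genes are 20.9% of the 43, against 9.09% of all genes, and the 2 lower genes are 4.65%, against 10%. Sv2b rose by 0.65 ± 0.15 (SE, adjusted p = 0.00645), with the 9 other animals at 11.78 ± 0.20 (SD, n = 9). Amph rose by 0.21 ± 0.03 (SE, adjusted p = 0.000241), against 11.82 ± 0.01 (SD, n = 9). Syt1 rose by 0.14, Syt2 by 0.27, Pclo by 0.16 and Synj1 by 0.16, with SEs of 0.03, 0.07, 0.04 and 0.05 and adjusted p-values of 0.00638, 0.0114, 0.0110 and 0.0258. In these 6 genes, taken from those called, no animal of the other 3 drugs reached the agomelatine animals. The share of all genes separated in this way was not counted.

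Syt12 rose by 0.33 ± 0.09 (SE, adjusted p = 0.0188), against 8.52 ± 0.11 (SD, n = 9) in the other drug animals. Agomelatine 3, at 8.51, lay within the range of those animals. Syt12 was called in 16 of the 18 fits that left out an animal. The call was lost without agomelatine 1 (adjusted p = 0.116) or agomelatine 2 (0.122). Rims1 read 11.39, 11.35 and 11.45 with agomelatine, against 11.25 ± 0.07 (SD, n = 9), and rose by 0.14 ± 0.04 (SE, adjusted p = 0.0325), called in 13 of 18 such fits. Rims3 rose by 0.19 ± 0.06 (SE, adjusted p = 0.0493), against 7.61 ± 0.13 (SD, n = 9). That call was kept in only 3 of 18 fits with an animal left out and in 3 of 12 other alternatives. In these 3 genes the groups overlapped. Synpr fell by 0.20 on the log2 scale (SE 0.04, adjusted p = 0.00482). The 9 other drug animals read 11.12 to 11.25 and the agomelatine animals 10.94 to 11.04, and the call held with each of the 18 animals left out. Napa fell by 0.25 (SE 0.09, adjusted p = 0.0486), with overlap at 12.48 ± 0.17 (SD, n = 9) in the other drug animals, and was called in 6 of 18 such fits. Sv2c was at -0.25 ± 0.10 (SE, adjusted p = 0.0732). Amph, Sv2b and Synpr were called with each animal left out. The number of calls was 7 without agomelatine 1 and 7 without agomelatine 2.

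**Figure D4:**
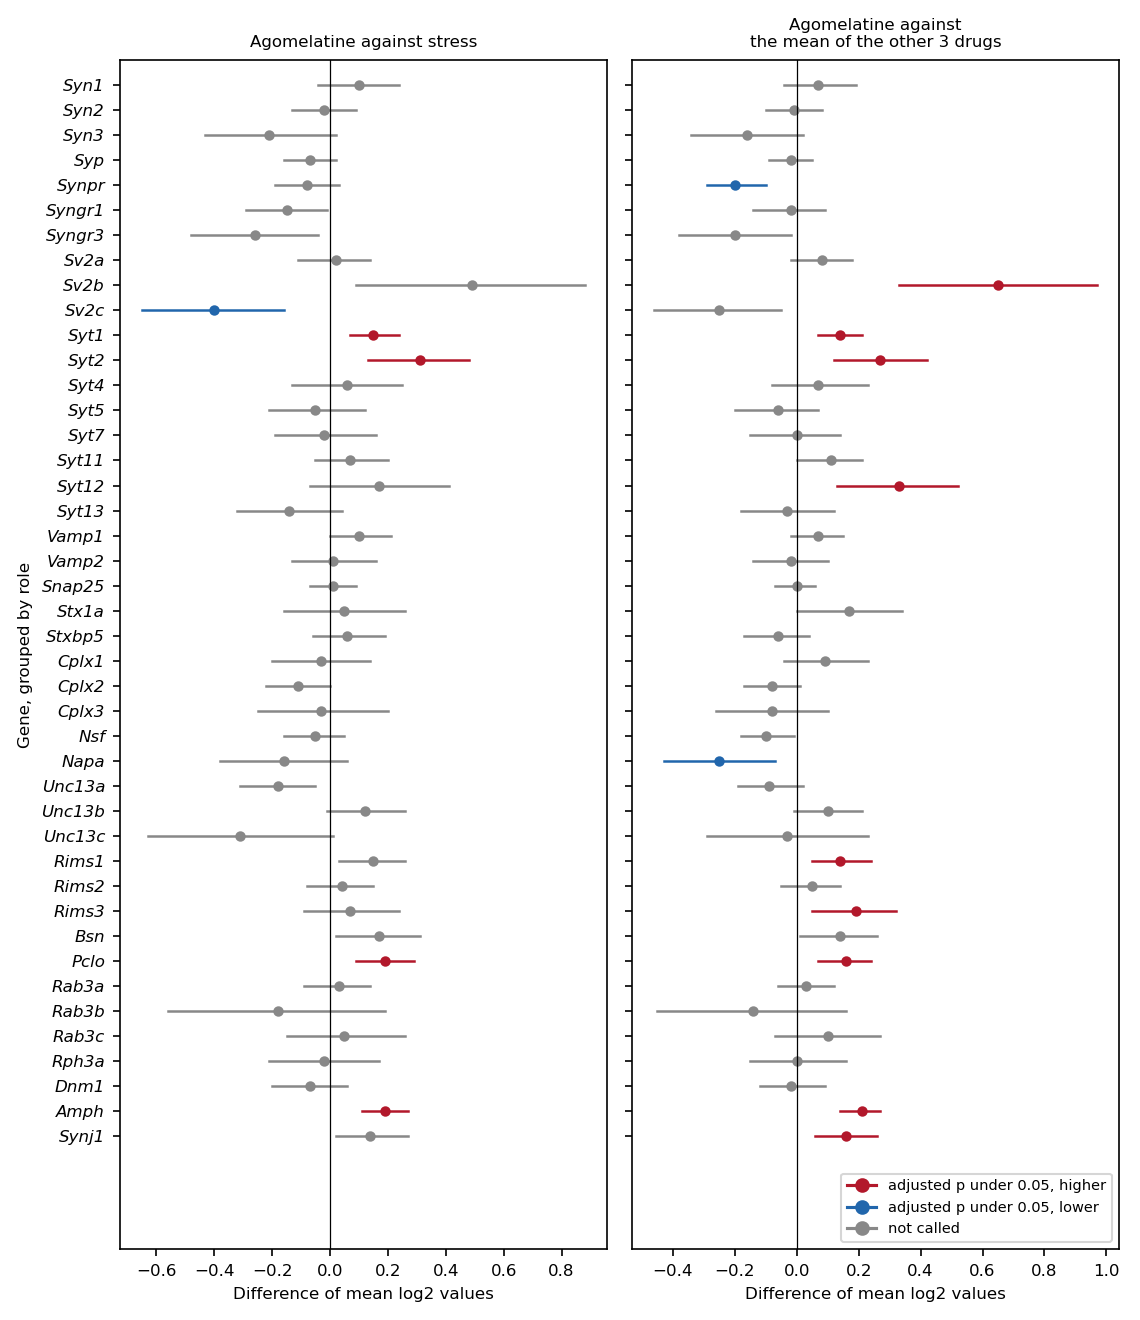
Difference of mean log2 values (points) with its 95% interval (lines) for the 43 presynaptic genes, for agomelatine against stress (left) and against the mean of the other 3 drugs (right); red and blue mark genes higher or lower at an adjusted p under 0.05. Red marks fall on synaptotagmins, active zone and endocytic genes and on Sv2b, and no gene of the SNARE or Rab3 groups is red. Blue marks fall on Sv2c on the left, and on Synpr and Napa, a gene of the SNARE group, on the right.

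Cell type genes differed with agomelatine alongside these changes. Of 7 granule neuron genes, 5 fell against stress, 6 against control and 7 against the other drugs, among them C1ql2 (-0.55 against stress) and Prox1 (-0.44 against control), the granule cell fate factor. Of 12 oligodendrocyte genes, 11, 11 and 12 rose in the same comparisons, and of 11 CA-field genes 2, 3 and 4 rose, none falling. Of 14 pan-neuron genes, 3, 5 and 5 rose, among them the neurofilament gene Nefm (0.50 against stress). Of 12 interneuron genes 0, 3 and 2 rose. The median difference from stress was -0.315 for granule neuron, 0.52 for oligodendrocyte and 0.272 for CA-field genes, beside 0.0123 for the 43 presynaptic genes and -0.0252 for all genes. Over animals, Sv2b was highest in agomelatine 2 and 1 (CA-field scores 0.43 and 0.31), followed by stress 3 (0.36) and agomelatine 3 (0.11), and lowest in control 2 (-0.18). Synpr was lowest in the 3 agomelatine animals and stress 3, which also had the 4 lowest granule neuron scores. In that score stress 3, at -0.06, was near the other groups (0.02 or more) and apart from the agomelatine animals (-0.40 to -0.36). A score and a gene's value in an animal come from the same array, and 3 of the animals at the ends are 1 group. The part of cell makeup in the presynaptic differences was not tested.

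**Figure D5:**
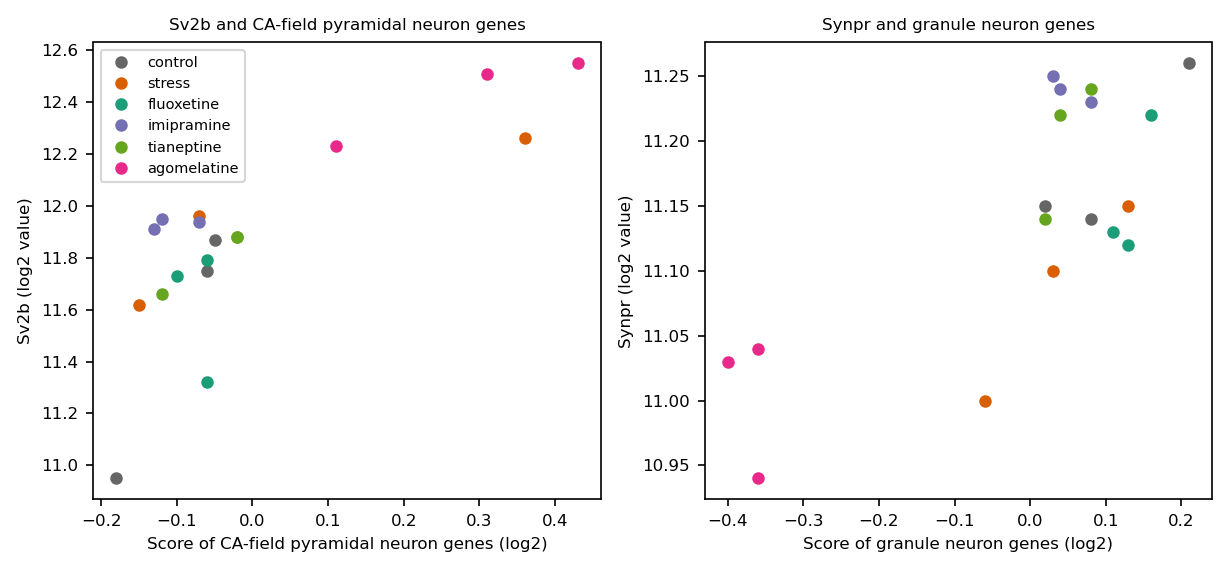
Log2 value of Sv2b against the score of 11 CA-field pyramidal neuron genes (left) and of Synpr against the score of 7 granule neuron genes (right), 1 point per animal, coloured by group. The agomelatine animals and stress 3 lie at the high end of both axes on the left. On the right the agomelatine animals lie at the low end of both axes. Stress 3 is as low in Synpr, but its score (-0.06) is near those of the other groups.

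Other genes of the presynaptic pathway gave a mixed picture with agomelatine. Over all genes, 4.18% were called higher and 6.58% lower against stress, and 5.28% and 4.31% against control. Against the other drugs the shares were 9.09% and 10%. They are the background for the counts here and in the next paragraph. Of 20 further endocytosis and clathrin genes, 3 rose and 1 fell against stress, 4 rose against control, and 8 rose and 1 fell against the other drugs. The endophilins Sh3gl2 and Sh3gl3, which work with synaptojanin, rose over stress by 0.24 and 0.27 (adjusted p = 0.0246 and 0.0322), and the clathrin adaptor Eps15 by 0.37 (adjusted p = 0.0178). Cltb, a clathrin light chain, fell by 0.24 (adjusted p = 0.00366). Of 27 further release and priming genes, 2 fell against stress (Syt17 and Sncb), 2 rose and 2 fell against control, and 3 rose and 4 fell against the other drugs.

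Of 14 genes for loading transmitter into vesicles, 1 rose and 1 fell against stress. The lower one was Slc30a3, the zinc transporter of synaptic vesicles that fills mossy fibre terminals with zinc. It fell by 0.61 against stress (SE 0.07, adjusted p = 6.94e-05) and by 0.65 against control (SE 0.07, adjusted p = 1.91e-05). Of 11 presynaptic calcium channel and neurexin genes, Cacna2d2, an auxiliary channel subunit, was the only call against stress or control, at 0.43 and 0.49 (adjusted p = 0.00398 and 0.00184). Of 24 postsynaptic density genes, 3 rose against stress (Homer1, Homer2 and Nlgn1), and 2 rose and 1 fell against control. None of these lists had a call in a comparison without agomelatine.

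Promoter sequences are shown for 5 genes: Amph, Pclo and Syt1, the genes called in all 3 agomelatine comparisons, and the SV2 genes Sv2b, which rose against control, and Sv2c, which fell against stress. Windows reach from 250 bases before to 50 after the annotated start (RefSeq, GRCr8), read in the direction of transcription, and were matched for 34 of the 43 genes. Where a gene had more than 1 window, the one with the lowest start coordinate was taken, for the 43 genes and for the tested genes alike. Capitals mark letters of 5 motifs searched on both strands: TGACGTCA (the cyclic AMP response element), GGGCGG (the GC box), TATAAA (the TATA box), and TCAGCACC and GGACAGCG, the left and right parts of the RE1 element bound by the repressor REST of neuronal genes.
Amph, chr17:50678452-50678751, minus strand: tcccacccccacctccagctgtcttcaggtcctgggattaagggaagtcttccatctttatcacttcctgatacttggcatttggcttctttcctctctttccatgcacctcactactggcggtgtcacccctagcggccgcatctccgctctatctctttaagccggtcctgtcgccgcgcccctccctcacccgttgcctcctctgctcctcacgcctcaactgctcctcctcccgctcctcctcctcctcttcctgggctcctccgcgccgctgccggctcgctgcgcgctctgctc
Pclo, chr4:21005062-21005361, minus strand: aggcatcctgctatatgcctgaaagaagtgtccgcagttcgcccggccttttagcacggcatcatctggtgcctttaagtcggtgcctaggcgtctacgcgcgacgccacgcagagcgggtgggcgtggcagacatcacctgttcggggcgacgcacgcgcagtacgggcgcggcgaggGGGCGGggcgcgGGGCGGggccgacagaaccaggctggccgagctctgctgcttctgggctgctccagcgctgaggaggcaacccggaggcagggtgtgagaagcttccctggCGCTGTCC
Syt1, chr7:46244164-46244463, minus strand: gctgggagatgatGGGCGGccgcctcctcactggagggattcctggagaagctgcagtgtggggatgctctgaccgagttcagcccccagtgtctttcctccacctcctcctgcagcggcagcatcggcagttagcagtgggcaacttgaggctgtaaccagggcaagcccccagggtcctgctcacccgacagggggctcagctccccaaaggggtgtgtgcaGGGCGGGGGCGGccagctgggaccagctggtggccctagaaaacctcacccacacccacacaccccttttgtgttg
Sv2b, chr1:138562209-138562508, minus strand: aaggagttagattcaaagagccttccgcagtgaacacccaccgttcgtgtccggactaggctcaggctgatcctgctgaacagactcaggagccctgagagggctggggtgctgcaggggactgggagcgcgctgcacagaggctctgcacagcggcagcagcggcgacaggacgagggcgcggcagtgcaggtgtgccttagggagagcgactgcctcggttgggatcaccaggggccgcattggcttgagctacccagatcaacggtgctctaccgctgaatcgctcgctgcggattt
Sv2c, chr2:29163119-29163418, minus strand: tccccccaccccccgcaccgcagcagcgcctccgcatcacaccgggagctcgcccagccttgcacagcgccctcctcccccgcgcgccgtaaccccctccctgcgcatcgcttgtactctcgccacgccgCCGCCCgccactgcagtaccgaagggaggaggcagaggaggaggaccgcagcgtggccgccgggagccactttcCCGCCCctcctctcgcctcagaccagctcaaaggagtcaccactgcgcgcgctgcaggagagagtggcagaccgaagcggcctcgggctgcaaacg
The capitals show 2 GC boxes and the right part of RE1 in Pclo, 3 GC boxes in Syt1, of which 2 lie end to end, and 2 in Sv2c on the opposite strand. Amph and Sv2b held none of these letters. Of the 34 genes, 23 held a GC box in that window (67.6%), beside 61% of the windows of 8935 tested genes and 33.1% of all 33469 windows. None held TATAAA, beside 6.96% of tested genes and 14.2% of all windows. The cyclic AMP response element and each part of RE1 were found in 3 of 34 genes (8.82%), beside 2.94%, 1.85% and 2.19% of tested genes and 1.83%, 1.48% and 1.21% of all windows. The median number of CpG dinucleotides was 22 in the 34 windows and 20 in those of tested genes. These matches describe the letters and were not related to the array differences.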

How the data were processed

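RNA from dentate gyrus was column-purified with DNase treatment, labelled with whole-transcript kits and hybridised, per the labels' protocols. The submitters' processing notes name RMA and Affymetrix Expression Console 1.2 as the source of the deposited log2 values; RMA equalises array distributions, which removes most array-wide shifts. Values ran from 3.57 to 14.4. Of 29214 probe sets, 15310 had 1 symbol, 323 several and 13581 were unnamed; 15279 matched RefSeq (GRCr8) by gene number.

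The first and repeat array of each control animal were averaged. Genes with a mean at or above the 25th percentile (7.165) were kept. A linear model with a mean for each group was fitted over 18 animals in limma 3.58.1 (R 4.3.3; 12 residual degrees of freedom, variance trend), with Benjamini-Hochberg adjustment over 10804 genes; a gene is called at an adjusted p under 0.05, the only basis for "rose" and "fell". The code was tested on simulated data. Promoters were searched in Python 3.11.15 with pandas 2.3.3.

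The members and gene lists were chosen with earlier results of these data known. Values with difference, SE and adjusted p are given for every called member (at most 8 per direction, plus Syt1 in agomelatine against the other drugs), or the smallest p per direction; Bsn, Unc13a, Napa, Dnm1, Rab3b, Snap25 and Sv2a were added for their roles after their values were seen. Replicate numbers did not pair animals: correlations of same-numbered animals ran from -0.30 to 0.292. Alternatives covered control arrays, filter, scaling, probe sets, variance model, groups fitted, block and left-out animals.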

Additional observations from a re-analysis of the deposited data

Results flagged for a closer look

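The effect of agomelatine differed from the mean of the other 3 drugs, by the test of that difference, in 11 of the 43 presynaptic genes, with 19.1% of all genes called in the same test. Sv2b was higher with agomelatine by 0.65 (adjusted p = 0.00645), Syt12 by 0.33 (0.0188), Syt2 by 0.27 (0.0114) and Amph by 0.21 (0.000241). Rims3 was higher by 0.19 (0.0493), Synj1 by 0.16 (0.0258), Pclo by 0.16 (0.011), Rims1 by 0.14 (0.0325) and Syt1 by 0.14 (0.00638). Synpr was at -0.20 (0.00482) and Napa at -0.25 (0.0486). Agomelatine was given at 40 mg/kg and in another vehicle, so drug, dose and vehicle cannot be told apart.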

How the results depend on the processing

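Across 31 alternatives per comparison, the 43 genes gave no call for fluoxetine, imipramine or tianeptine against stress or control, or for imipramine against tianeptine, and 1 for stress against control with the repeat arrays alone as controls (Cplx1). Of 38 differences followed (those of called genes or of the smallest p in a direction), 0 changed sign; small differences of other genes were not followed. For agomelatine against stress (5 calls) the count was 2 with all 21 arrays and the animal as a random block, 1 with array weights, 0 with only the groups compared, 1 leaving out stress 1 and agomelatine 1 (chosen after seeing the data), and 1 to 6 with an animal left out. For agomelatine against control (7) it was 11 with the first arrays alone as controls, 3 with only the groups compared, 4 leaving out stress 1 and agomelatine 1, and 2 to 8 with an animal left out. Against the other 3 drugs (11) it was 5 with array weights and 7 to 11 with an animal left out. The F test (3) gave 1 with array weights, 0 leaving out those 2 animals, and 1 to 4 with an animal left out. With the replicate block it gave 1, and the counts of agomelatine against stress, control and the other drugs were 5, 6 and 10; Pclo and Synpr against control and Rims3 against the other drugs lost their calls. Of 18 animals, 5 correlated best with their own number. The other causes were not tested; fits to only the groups compared have fewer samples. Syt2, Syt12 and Rims3 fell below the filter at the 50th percentile. Scaling moved the all-gene median by -0.0536 to 0.049. Small differences at 3 animals a group, above all in the dim genes Syt2 and Rims3, are the limit.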
